A study of Mus musculus with 40 samples.

Results

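The thrombospondin and matricellular genes Thbs1, Thbs2, Tnc, Postn, Spp1, and Sparc were followed in mouse aortas during the first day of angiotensin-II (Ang-II) infusion. They were taken by name: a gene was a member when its symbol was in the gene name column of both expression tables. The members and the gene lists below were chosen with earlier results of these data known. Their counts beside the shares of all genes are therefore descriptions. All 6 are protein coding and present in both tables, as 6 of the 17402 genes listed for the genotype experiment and 6 of the 15399 listed for the CsA experiment. Ang-II is a peptide hormone that constricts arteries and raises blood pressure, and the study asked which of its transcriptional effects on the aorta need calcineurin (Cn), a calcium-activated phosphatase.

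In the genotype experiment (22 libraries, 8 groups), all mice were male, are labelled as carrying the CnB1-flox allele of Ppp3r1, which encodes the regulatory subunit of Cn, and received 1 mg of tamoxifen daily for 5 days. Cn-Ctl mice are labelled Myh11-CreERT2-neg. The study's methods also count Cre-carrying mice with unfloxed Cnb1 alleles among the controls, and the labels name none of these. SM-Cn-/- mice were Myh11-CreERT2-pos, with a Cre driven by the promoter of a smooth muscle myosin gene. After 6 weeks the mice were left untreated or had an osmotic minipump delivering Ang-II (1 µg/kg/min) during 2, 6, or 24 h, with 3 libraries per group except for 2 in untreated Cn-Ctl and 2 in Cn-Ctl at 24 h. Per the study's methods, another untreated Cn-Ctl replicate was dropped because it lay far from the other 2 in a principal component analysis. The spread of the 2 kept libraries does not include it. In the CsA experiment (18 libraries, 6 groups of 3), WT C57BL/6J male mice were compared with mice given the Cn inhibitor cyclosporin A (CsA) for 5 days by minipump at 5 mg/kg/day, untreated or after 2 or 24 h of the same Ang-II infusion. Control mice had no pump during the CsA days, so CsA and the pump cannot be told apart. Per the study's methods, controls were operated on without a pump, and no vehicle pump is described. In both experiments Ang-II and its pump therefore cannot be told apart either. Each library pooled 3 aortas stripped of adventitia and perivascular tissue, and p-values therefore measure the spread between pools. Treated Cn-Ctl, WT, and CsA mice entered the pools only with a systolic pressure over 130 mmHg, whereas all treated SM-Cn-/- mice were kept, so this selection and the genotype cannot be told apart in the treated groups.

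Values are given as signal, on the CPM scale: 0.5 was added to each gene's reads before they were put relative to a scaled library size. Libraries held 2.73 M to 10.3 M assigned reads in the genotype experiment and 19 M to 38.9 M in the CsA experiment. The summed signal of the 7 smooth muscle markers lay between 16694 and 50386, with none of them at 0 reads. Ppp3r1 itself had a signal of 41.8 to 118 in the 12 SM-Cn-/- libraries (median 76.3) and 45.7 to 134 in the 10 Cn-Ctl libraries (median 85.6). These ranges overlap, and a whole-gene value cannot tell transcripts with the floxed exons from those without them. Of the Ppp3r1 exon bases, 14.3% also overlap Wdr92 on the same strand. The study checked CnB1 recombination by PCR on aortic tissue and reported less CnB and CnA protein in SM-Cn-/- aortas by immunoblot. A gene is said to rise, fall, or differ when the Benjamini-Hochberg adjusted p of limma, over all protein-coding genes of its table, was under 0.05, and changes are given as differences on the log2(signal + 0.5) scale.

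Matricellular proteins are secreted into the extracellular matrix but act less as scaffolding than as signals. They bind integrins, CD36, CD47, CD44, and syndecans on the cell surface, change how firmly cells hold on to the matrix, and store or activate growth factors. Thrombospondin-1 (Thbs1) activates latent TGF-β and limits angiogenesis and nitric oxide signalling. Thrombospondin-2 (Thbs2) is its close relative with a role in collagen fibril assembly. Tenascin-C (Tnc) is a large anti-adhesive glycoprotein deposited at sites of mechanical strain and injury, and periostin (Postn) promotes collagen crosslinking. Osteopontin (Spp1) is a phosphoprotein made by activated macrophages and by smooth muscle that leaves the contractile state, and Sparc is a collagen-binding chaperone of the matrix. Several of them are known to increase in the artery wall after injury and under raised pressure.

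RefSeq promoter windows (GRCm38.p6) were matched for 5 of the 6 genes, without Thbs1, and those of Tnc, Postn, and Spp1 are shown because these genes rose together with Thbs1 in 1 or both experiments. That of Sparc began 3103 bases from the annotated GENCODE start and is not shown. The 250 bases before the start site of Tnc (chr4:64047016-64047265, minus strand), Postn (chr3:54360857-54361106, plus strand), and Spp1 (chr5:104434861-104435110, plus strand) read, 5′ to 3′ and with each TATAAA in capitals:
Tnc: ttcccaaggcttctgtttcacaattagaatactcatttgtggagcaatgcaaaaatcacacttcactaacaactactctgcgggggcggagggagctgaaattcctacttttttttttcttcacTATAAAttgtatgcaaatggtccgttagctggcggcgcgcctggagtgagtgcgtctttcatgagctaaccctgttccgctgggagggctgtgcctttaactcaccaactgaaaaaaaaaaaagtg
Postn: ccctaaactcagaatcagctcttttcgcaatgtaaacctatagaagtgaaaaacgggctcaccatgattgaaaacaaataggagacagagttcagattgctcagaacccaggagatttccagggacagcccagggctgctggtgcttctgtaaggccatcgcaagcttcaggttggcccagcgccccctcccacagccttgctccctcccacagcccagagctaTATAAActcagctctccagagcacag
Spp1: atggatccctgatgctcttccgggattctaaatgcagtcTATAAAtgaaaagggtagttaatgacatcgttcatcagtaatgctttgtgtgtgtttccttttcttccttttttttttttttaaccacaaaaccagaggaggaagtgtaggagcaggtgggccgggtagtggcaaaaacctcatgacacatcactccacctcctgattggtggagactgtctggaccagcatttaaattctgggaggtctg
TATAAA, read on either strand, is in 12.4% of the 32817 windows of this length. It lies 26 to 21 bases before the start in Postn, 126 to 121 bases before it in Tnc, and 211 to 206 bases before it in Spp1. The AP-1 letters TGANTCA (6.75% of windows), the CRE letters TGACGTCA (1.55%), and the CArG box (1.47%) were found in none of these windows on either strand, nor in that of Thbs2. The NFAT core GGAAAA (20.4% of windows) was found in the Thbs2 window only, and the RUNX letters AACCACA (4.39%) in the Spp1 window only. These matches describe letters and do not show binding.

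In Cn-Ctl aortas Ang-II raised Thbs1, Tnc, and Postn, whereas in SM-Cn-/- aortas none of the 6 genes passed the test at any hour. Of the 6 genes, 3 rose in Cn-Ctl at 2 h, where 6.23% of all tested genes passed (4.72% as higher), 1 rose at 6 h (3.97% of all genes, 2.72% as higher), and 3 rose at 24 h (5.62%, 3.22% as higher). In SM-Cn-/- the counts were 0 at 2 h (1.13% of all genes), 0 at 6 h (2.34%), and 0 at 24 h (0.790%) by limma. At an unadjusted p under 0.05 these counts were 2, 0, and 1, by edgeR they were 0 at each hour, and by DESeq2 they were 0, 0, and 1 (Postn at 24 h). In Cn-Ctl they were 4, 3, and 5 at an unadjusted p under 0.05, 4, 1, and 3 by edgeR, and 4, 3, and 3 by DESeq2. The median log2 difference over the 6 genes was 1.23, 0.83, and 1.29 in Cn-Ctl at 2, 6, and 24 h and 0.41, -0.21, and -0.32 in SM-Cn-/-, beside medians of -0.03 to 0.01 over all genes tested. The 3 responses of a genotype share its untreated libraries.

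**Figure D1:**
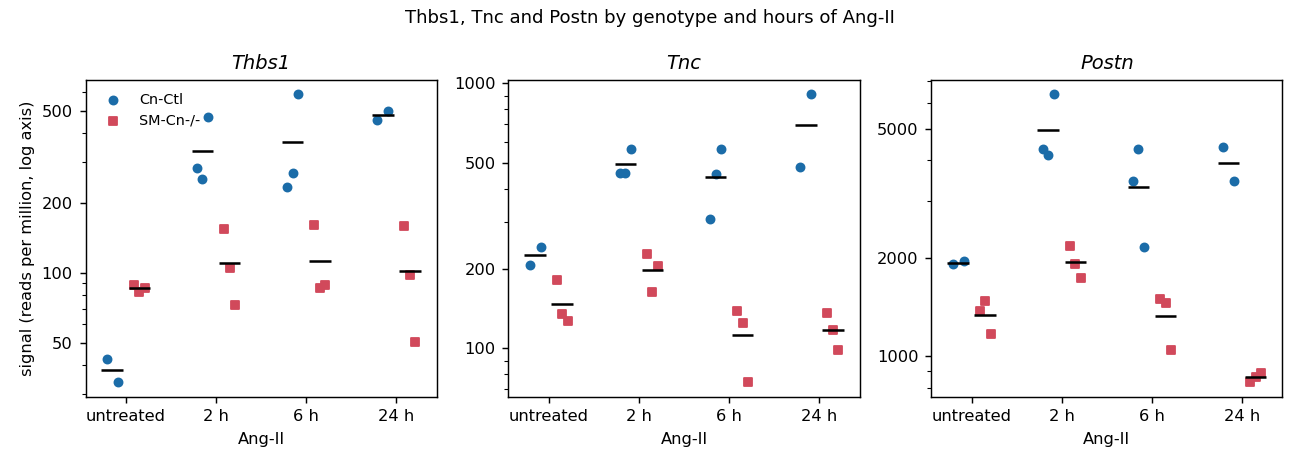
Signal (CPM scale, log axis) of Thbs1, Tnc, and Postn in each library of the genotype experiment by hours of Ang-II. Points are libraries and bars are group means; the treated Cn-Ctl libraries of Thbs1 (235 to 589) lie above all SM-Cn-/- libraries, whose highest value is 161.

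Thbs1 (chr2:118111876-118127133, plus strand, GRCm38) had the largest change of the 6 genes in this experiment apart from the scarcely read Spp1. Its signal was 42.3 and 33.7 in the 2 untreated Cn-Ctl libraries, 282, 253, and 471 at 2 h, 235, 271, and 589 at 6 h, and 456 and 501 at 24 h. All 8 treated Cn-Ctl libraries were above both untreated ones. The rise was 3.08 (SE 0.41, limma adjusted p 2.9e-05) at 2 h, 3.13 (SE 0.41, adjusted p 7.7e-05) at 6 h, and 3.65 (SE 0.45, adjusted p 6.4e-05) at 24 h, from a mean of 38 ± 6.11 (SD, n = 2) to 479 ± 31.4 (SD, n = 2). The 2 h rise was larger than that of 99.7% of the genes tested. In SM-Cn-/- aortas Thbs1 was 88.9, 82.5, and 86.1 without Ang-II, 154, 105, and 72.8 at 2 h, 161, 85.8, and 88.7 at 6 h, and 159, 97.4, and 50.4 at 24 h. At each hour the treated SM-Cn-/- libraries overlapped the untreated ones, and the differences were 0.30 (95% confidence interval -0.47 to 1.06), 0.32 (-0.45 to 1.08), and 0.10 (-0.66 to 0.86).

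Before Ang-II, Thbs1 was higher in every SM-Cn-/- library than in both Cn-Ctl libraries, with a difference of 1.17 (95% confidence interval 0.32 to 2.03) that did not pass the adjustment (limma adjusted p 0.73). After Ang-II the order was the opposite: Thbs1 was lower in SM-Cn-/- by -1.61 (SE 0.37, adjusted p 0.012) at 2 h, -1.64 (SE 0.37, adjusted p 0.019) at 6 h, and -2.37 (SE 0.41, adjusted p 0.0013) at 24 h, with no overlap between the groups. The response in SM-Cn-/- minus that in Cn-Ctl was -2.78 (SE 0.55, limma adjusted p 0.017) at 2 h, -2.81 (SE 0.55, adjusted p 0.06) at 6 h, and -3.55 (SE 0.58, adjusted p 0.0074) at 24 h. These differences hold both the smaller rise and the higher untreated level of SM-Cn-/-. The response difference lost its call at 2 h without untreated Cn-Ctl replicate 2 (adjusted p 0.082) or 3 (0.12), without SM-Cn-/- 2 h replicate 2 (0.055), or without the intensity trend (0.08), and at 24 h without untreated Cn-Ctl replicate 3 (0.052) or Cn-Ctl 24 h replicate 3 (0.053). The genotype difference at 2 h lost its call without SM-Cn-/- 2 h replicate 2 (adjusted p 0.056) or 3 (0.068) or Cn-Ctl 2 h replicate 3 (0.064) and under quantile normalization (0.055), and that at 6 h without SM-Cn-/- 6 h replicate 2 (0.1) or 3 (0.12) or Cn-Ctl 6 h replicate 3 (0.094), without the trend (0.065), or in a fit to the 2 groups alone (0.12).

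Tnc (chr4:63959785-64047015, minus strand) rose in Cn-Ctl and was lower in SM-Cn-/- at every hour of Ang-II. In Cn-Ctl its signal was 207 and 242 without Ang-II, 459, 458, and 566 at 2 h, 309, 455, and 564 at 6 h, and 482 and 911 at 24 h. Every treated library was above both untreated ones, and the rise was 1.13 (SE 0.28, limma adjusted p 0.016) at 2 h and 1.56 (SE 0.31, adjusted p 0.0044) at 24 h, while the difference of 0.94 at 6 h did not pass (adjusted p 0.067). In SM-Cn-/- it was 181, 134, and 127 without Ang-II, 226, 164, and 204 at 2 h, 138, 124, and 74.4 at 6 h, and 136, 118, and 98.7 at 24 h, so that the values at each hour overlapped those without Ang-II. The highest treated SM-Cn-/- library (226) was below the lowest treated Cn-Ctl library (309). Tnc differed between the genotypes by -1.32 (SE 0.25, adjusted p 0.0029) at 2 h, -1.98 (SE 0.25, adjusted p 9.5e-05) at 6 h, and -2.50 (SE 0.28, adjusted p 2.8e-05) at 24 h, a mean of 117 ± 18.5 (SD, n = 3) against 697 ± 303 (SD, n = 2). The 24 h difference lies below those of all but 0.277% of the genes. The response in SM-Cn-/- minus that in Cn-Ctl was -1.89 (SE 0.40, adjusted p 0.032) at 24 h, -0.71 (adjusted p 0.69) at 2 h, and -1.36 (adjusted p 0.37) at 6 h.

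The rise of Tnc in Cn-Ctl at 2 h was lost without untreated Cn-Ctl replicate 2 (adjusted p 0.18) or 3 (0.081), without Cn-Ctl 2 h replicate 3 (0.058), and under quantile normalization, where it was 0.73 (adjusted p 0.16). At 24 h it was lost without Cn-Ctl 24 h replicate 3 (adjusted p 0.13), the library at 911, without untreated Cn-Ctl replicate 2 (0.065), or in a fit to the 2 groups alone (0.062), and the difference in response lost its call without each of 8 of its 10 libraries (at most 0.29, with -1.43, without Cn-Ctl 24 h replicate 3) or without the trend (0.1).

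Postn (chr3:54361109-54391037, plus strand) likewise rose in Cn-Ctl and was lower in SM-Cn-/- with Ang-II. In Cn-Ctl its signal was 1918 and 1966 without Ang-II, 4322, 4154, and 6386 at 2 h, 3458, 4319, and 2165 at 6 h, and 4407 and 3455 at 24 h. It rose by 1.32 (SE 0.26, limma adjusted p 0.0025) at 2 h and by 1.01 (SE 0.29, adjusted p 0.043) at 24 h, and at 6 h the difference was 0.71 (adjusted p 0.15). In SM-Cn-/- it was 1378, 1475, and 1172 without Ang-II, 2181, 1928, and 1743 at 2 h, 1501, 1459, and 1045 at 6 h, and 832, 862, and 891 at 24 h. The 2 h libraries were thus above the untreated ones and the 24 h libraries below them, with differences of 0.54 (adjusted p 0.33) and -0.63 (adjusted p 0.26) that did not pass. Between the genotypes Postn was lower in SM-Cn-/- by -1.32 (SE 0.24, adjusted p 0.0016) at 2 h, -1.27 (SE 0.24, adjusted p 0.0045) at 6 h, and -2.18 (SE 0.26, adjusted p 4.7e-05) at 24 h, where the mean was 862 ± 29.5 (SD, n = 3) against 3931 ± 673 (SD, n = 2). Its response in SM-Cn-/- minus that in Cn-Ctl was -1.64 (SE 0.37, adjusted p 0.047) at 24 h, -0.78 (adjusted p 0.58) at 2 h, and -0.73 (adjusted p 0.82) at 6 h. The rise at 24 h in Cn-Ctl lost its call without any 1 of the 4 libraries compared (adjusted p 0.1 to 0.2), under quantile normalization (0.088), without the trend (0.063), and in a fit to the 2 groups alone (0.27). The difference in response at 24 h lost its call without any 1 of its 10 libraries (adjusted p 0.056 to 0.22), with a pseudocount of 0.1 (0.05), under quantile normalization (0.057), without the trend (0.088), and over all listed genes (0.053). The 2 h rise in Cn-Ctl was not called under quantile normalization (0.94, adjusted p 0.055), nor the 6 h difference between the genotypes in a fit to the 2 groups alone (adjusted p 0.16). The 6 h difference between Ang-II and untreated in Cn-Ctl was called by DESeq2 (adjusted p 0.014). It also passed without Cn-Ctl 6 h replicate 3 (0.99, limma adjusted p 0.036).

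By count, none of the 6 genes differed between the untreated genotypes by limma, where 0.0139% of all genes did. At an unadjusted p under 0.05 there were 2 (Thbs1 and Tnc), and edgeR and DESeq2 called 0. After Ang-II the same 3 genes, Thbs1, Tnc, and Postn, were lower in SM-Cn-/- at 2 h (3 of 6, beside 3.70% of all genes and 2.97% as lower), at 6 h (3 of 6, beside 1.98% and 1.44%), and at 24 h (3 of 6, beside 4.94% and 2.68%). The difference in response passed for 1 of 6 at 2 h (0.513% of all genes), 0 of 6 at 6 h (0.0624%), and 3 of 6 at 24 h (0.513%). At 6 h, 3 had an unadjusted p under 0.05, and edgeR called 0 and DESeq2 1 (Thbs1). The treated comparisons share no library with each other, while the 3 response differences share the untreated groups.

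Other cell markers moved with some of these groups. In the untreated aortas the summed signal was 572 to 760 in SM-Cn-/- and 329 to 445 in Cn-Ctl for 7 endothelial markers, 142 to 259 and 81.9 to 116 for 7 macrophage markers, and 21469 to 25082 and 29238 to 30069 for 7 smooth muscle markers, without overlap and with no single marker past the test. The summed signal of the macrophage markers in Cn-Ctl was 122 to 339 at 2 h and 208 to 287 at 24 h, with 1 of the 7 (C1qa) past the test at each of these hours and none at 0 reads. The 7 fibroblast markers summed to 873 to 1590 in untreated Cn-Ctl and 1668 to 2634 at 2 h, with 1 of 7 (Pi16) higher. From untreated Cn-Ctl to 24 h, the 4 platelet markers went from between 5.39 and 6.57 to between 16.2 and 16.3 and the 3 mesothelial markers from between 1.09 and 3.01 to between 21.6 and 43.6, with none of either list past the test. Each of these libraries had 1 or 2 platelet markers at 0 reads, and untreated replicate 2 had 2 mesothelial markers at 0. At 24 h the 7 endothelial markers summed to 1111 to 1179 in SM-Cn-/- and 475 to 487 in Cn-Ctl, with 3 of 7 higher in SM-Cn-/-, and the 7 smooth muscle markers to 25145 to 28093 and 27870 to 50386, with 1 of 7 (Cnn1) lower, as was 1 of 7 fibroblast markers (Pi16). The part of these markers in the results for Thbs1, Tnc, and Postn was not tested. In bulk aorta, fewer cells of a type and less RNA per cell cannot be told apart.

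Spp1 (chr5:104435118-104441050, plus strand) was near the limit of detection in the genotype experiment. In Cn-Ctl its signal was 0.51 and 1.0 without Ang-II (3 and 5 reads), 1.50, 3.55, and 118 at 2 h, 3.63, 5.23, and 6.11 at 6 h, and 13.3 and 30.2 at 24 h. A single library, Cn-Ctl 2 h replicate 3 with 771 reads, stood above all others. Its 4 cartilage and bone markers summed to 86.7, against 35.5 and 38.6 in replicates 1 and 2. Its macrophage markers summed to 339 against 122 and 189. Cn-Ctl 6 h replicate 1, with Spp1 at 3.63, had a macrophage sum of 338. The part of these markers in this library's Spp1 signal was not tested. In SM-Cn-/- the signal of Spp1 was 1.27, 13.1, and 5.28 without Ang-II and between 0.046 and 8.32 in the 9 treated libraries. Of these treated libraries, 2 had 0 reads. A floor of 3 reads, without the added 0.5, would be a signal of 1.04 in 6 h replicate 3 and 0.276 in 24 h replicate 3. All treated Cn-Ctl libraries were above the untreated ones, but neither the difference of 3.00 at 2 h (SE 1.23, limma adjusted p 0.18) nor that of 4.06 at 24 h (SE 1.35, adjusted p 0.084) passed. Without Cn-Ctl 2 h replicate 3 the former was 1.21 (adjusted p 0.59), while with all libraries edgeR and DESeq2 on the recovered reads called it (adjusted p 0.046 and 0.0064). At 24 h the 2 Cn-Ctl libraries were above the 3 of SM-Cn-/- (3.68, 2.70, and 0.046), a difference of -3.40 (SE 1.23, adjusted p 0.13). Of the Spp1 exons, 18.8% overlap Gm42793 on the same strand, and reads there cannot be assigned with certainty.

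Thbs2 and Sparc passed no test in the genotype experiment. The signal of Thbs2 (chr17:14665500-14694235, minus strand) was 75.4 and 61.0 in untreated Cn-Ctl, 91.4, 86.1, and 97.9 at 2 h, 51.3, 75.3, and 25.9 at 6 h, and 53.2 and 22.9 at 24 h, a 24 h difference of -0.95 (SE 0.37, limma adjusted p 0.15). In SM-Cn-/- it was 67.9, 62.1, and 56.7 without Ang-II, 93.5, 90.0, and 63.3 at 2 h, 58.4, 48.8, and 37.0 at 6 h, and 52.2, 56.8, and 42.0 at 24 h. In both genotypes the means were highest at 2 h. Without Cn-Ctl 24 h replicate 2 the 24 h difference in Cn-Ctl was -1.55 (adjusted p 0.023), and without replicate 3, the library at 22.9, it was -0.35 (adjusted p 0.82). Sparc (chr11:55394500-55423183, minus strand) was between 3070 and 3171 in untreated Cn-Ctl and between 3013 and 3280 in untreated SM-Cn-/-, between 3802 and 5406 and between 4272 and 4913 at 2 h, and between 2698 and 3823 and between 2214 and 3436 at 24 h. The genotypes overlapped for Sparc at each hour.

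**Figure D2:**
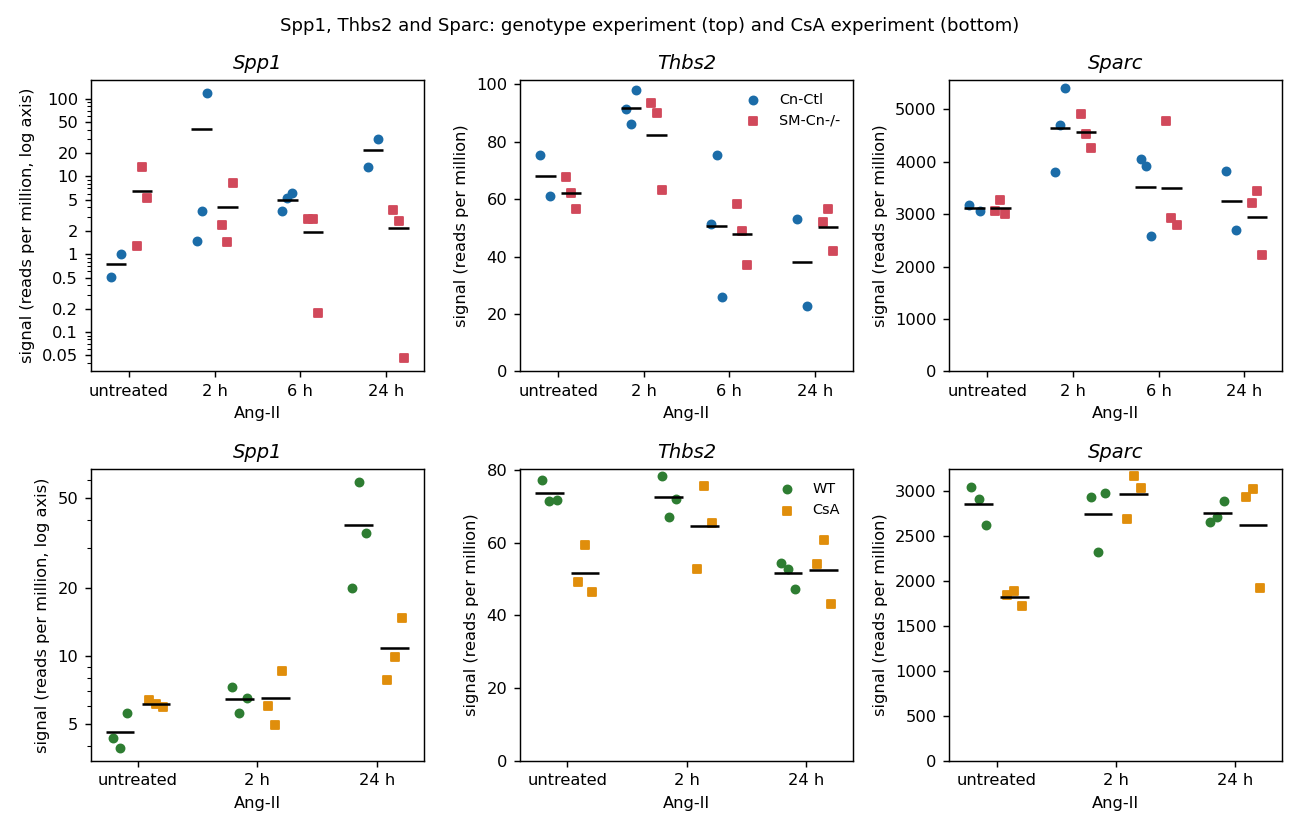
Signal of Spp1 (log axis), Thbs2, and Sparc (linear axes from 0) in each library, with the genotype experiment above and the CsA experiment below. Bars are group means; Spp1 in WT at 24 h (19.98 to 58.4) lies above all other libraries of the CsA experiment, and Sparc and Thbs2 are lower in the untreated CsA group than in untreated WT.

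The CsA experiment measured the same genes in other mice at greater depth. In WT aortas Ang-II raised Thbs1 at 2 h, and Thbs1, Tnc, and Spp1 at 24 h, while Thbs2 fell at 24 h. Tnc and Postn in WT at 2 h passed when replicate 2 of that group was left out. The macrophage markers of that library summed to 343, against 83.4 and 93.3 in replicates 1 and 3. Its Schwann cell markers summed to 120 against 44.2 and 42.8, while its endothelial sum was 574 against 625 and 582. The part of these markers in its values was not tested. After CsA, Ang-II raised Thbs1, Tnc, and Postn at both hours and Sparc at 2 h. Without Ang-II, CsA aortas had less Tnc, Postn, Sparc, and Thbs2 mRNA than WT. By count, 1 of the 6 genes passed in WT at 2 h, where 21.4% of all genes did, 4 at 24 h (35.0%), 4 after CsA at 2 h (20.1%), and 3 after CsA at 24 h (8.97%). The median log2 difference over the 6 genes was 0.48, 1.24, 0.99, and 1.01 in these comparisons, beside -0.02 to 0.02 over all genes. The 2 hours of a pretreatment share their untreated libraries.

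**Figure D3:**
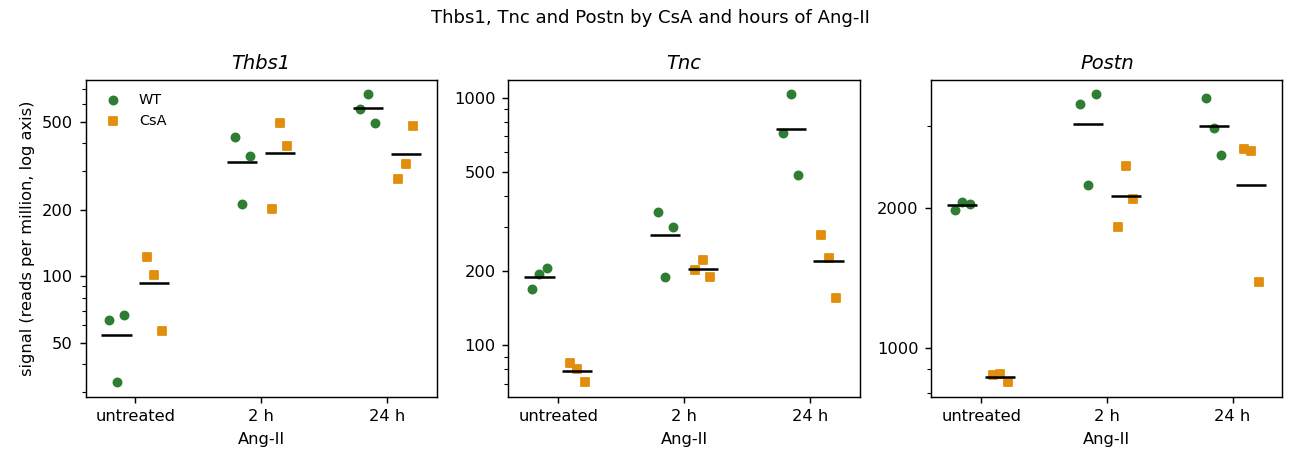
Signal (CPM scale, log axis) of Thbs1, Tnc, and Postn in each library of the CsA experiment by hours of Ang-II, with points for libraries and bars for group means. Untreated CsA libraries lie below untreated WT for Tnc (70.8 to 85.0 against 169 to 205) and Postn (844 to 881 against 1978 to 2053) but not for Thbs1.

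Thbs1 was 63.5, 33.2, and 66.9 in untreated WT, 427, 211, and 351 at 2 h, and 571, 665, and 491 at 24 h. It rose by 2.59 (SE 0.37, limma adjusted p 1.2e-04) and 3.44 (SE 0.37, adjusted p 5.6e-06), at 24 h from 54.5 ± 18.6 to 576 ± 86.9 (SD, n = 3). After CsA it was 122, 101, and 56.9 without Ang-II, 202, 493, and 387 at 2 h, and 274, 322, and 477 at 24 h, and rose by 1.92 (adjusted p 0.0022) and 1.96 (adjusted p 0.005). All treated libraries of either pretreatment were above all untreated ones. CsA and WT did not differ in Thbs1 past the threshold at any hour, with differences of 0.77 (95% confidence interval -0.01 to 1.55) untreated, 0.09 (-0.68 to 0.87) at 2 h, and -0.71 (-1.49 to 0.06) at 24 h. At 24 h every CsA library was nevertheless below every WT library, and the response after CsA minus that in WT was -1.48 (SE 0.52, adjusted p 0.081). That difference in response passed without CsA 24 h replicate 3 (-1.71, adjusted p 0.039) or untreated CsA replicate 3 (-1.80, adjusted p 0.048).

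Tnc was 169, 194, and 205 in untreated WT, 344, 189, and 301 at 2 h, and 721, 1032, and 486 at 24 h. The 2 h libraries overlapped the untreated ones (0.51, SE 0.25, limma adjusted p 0.17), and the 24 h rise was 1.91 (SE 0.25, adjusted p 3.7e-05). After CsA it was 85.0, 80.0, and 70.8 without Ang-II, 201, 221, and 188 at 2 h, and 278, 224, and 156 at 24 h, with rises of 1.37 (adjusted p 0.0018) and 1.44 (adjusted p 0.0036). The level after CsA was below that of WT without Ang-II (-1.26, SE 0.25, adjusted p 0.003) and at 24 h (-1.74, SE 0.25, adjusted p 0.0033, 219 ± 61.2 against 746 ± 274, SD, n = 3), with no overlap, and at 2 h the difference was -0.41 (adjusted p 0.4). Its response after CsA minus that in WT was 0.85 (95% confidence interval 0.10 to 1.61) at 2 h and -0.48 (-1.23 to 0.28) at 24 h, neither past the threshold. The 24 h difference between CsA and WT had an adjusted p of 0.077 in a fit to those 2 groups alone. Without WT 2 h replicate 2, the library at 189, the 2 h rise in WT was 0.77 and passed (adjusted p 0.04).

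Postn was 1978, 2053, and 2039 in untreated WT and 874, 881, and 844 in untreated CsA, a difference of -1.22 (SE 0.23, limma adjusted p 0.0022). In WT it was 3340, 2241, and 3506 at 2 h and 3436, 2959, and 2601 at 24 h, above the untreated libraries in all 6, but the differences of 0.55 (adjusted p 0.1) and 0.56 (adjusted p 0.07) did not pass. DESeq2 called both (adjusted p 0.028 and 0.021). After CsA it was 1814, 2453, and 2089 at 2 h and 2677, 2650, and 1383 at 24 h, with rises of 1.28 (adjusted p 0.0014) and 1.31 (adjusted p 0.0036). The larger differences after CsA start from the lower untreated level, and with Ang-II the difference between CsA and WT was -0.50 (adjusted p 0.26) at 2 h and -0.48 (adjusted p 0.22) at 24 h. The responses differed by 0.72 (adjusted p 0.34) and 0.75 (adjusted p 0.15), and the difference in response passed at 24 h without CsA 24 h replicate 3 (1.06, adjusted p 0.01). Without WT 2 h replicate 2, the library at 2241, the 2 h rise in WT was 0.76 and passed (limma adjusted p 0.031).

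**Figure D4:**
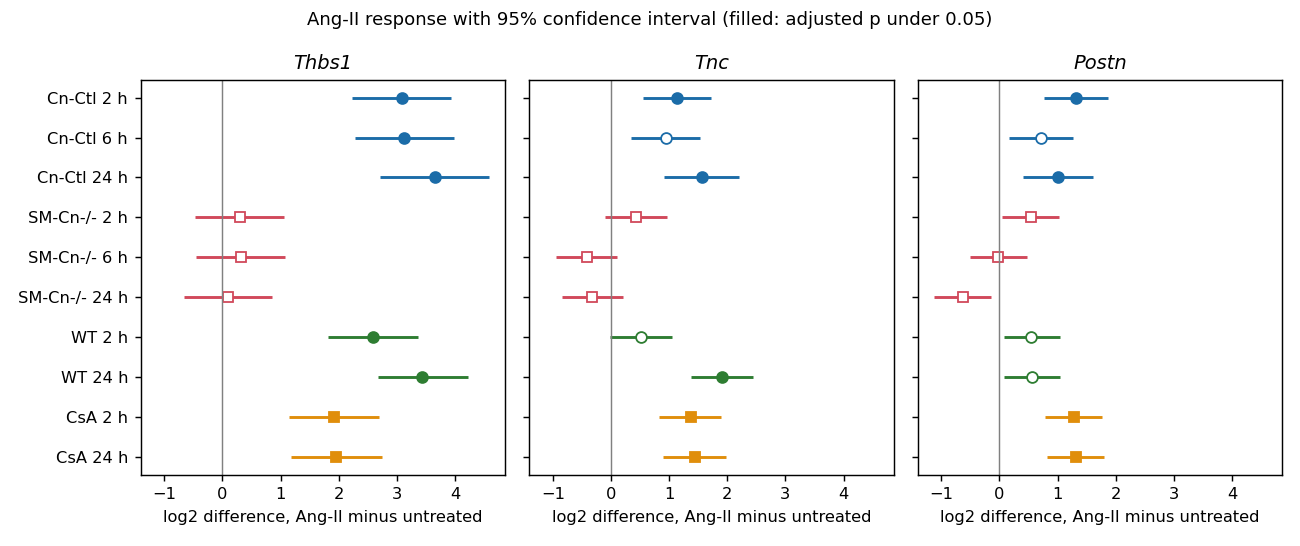
Log2 difference between Ang-II and untreated libraries of the same genotype or pretreatment for Thbs1, Tnc, and Postn, with 95% confidence intervals; filled symbols have an adjusted p under 0.05. Thbs1 lies between 1.92 and 3.65 in Cn-Ctl, WT, and CsA and between 0.10 and 0.32 in SM-Cn-/-.

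Spp1 responded late. Its signal was 4.36, 3.95, and 5.62 in untreated WT, 7.31, 5.62, and 6.55 at 2 h, and 19.98, 58.4, and 34.9 at 24 h. The 24 h libraries, with 389 to 1721 reads, were above all others, a rise of 2.78 (SE 0.30, limma adjusted p 6.7e-06), whereas the 2 h difference was 0.45 (adjusted p 0.33). After CsA it was 6.38, 6.13, and 5.95 without Ang-II, 6.00, 4.97, and 8.61 at 2 h, and 7.84, 9.92, and 14.7 at 24 h, and the 24 h difference of 0.72 did not pass (adjusted p 0.14). At 24 h Spp1 was lower after CsA by -1.67 (SE 0.30, adjusted p 0.0071), and the response after CsA was smaller than in WT by -2.06 (SE 0.43, adjusted p 0.011). The latter held in each fit that left out 1 library, between -2.44 and -1.68. The level difference at 24 h had an adjusted p of 0.051 without WT 24 h replicate 2 (-1.29), the library at 58.4, and of 0.11 in a fit to the 2 groups alone.

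Thbs2 was 77.3, 71.5, and 71.8 in untreated WT and 54.5, 52.8, and 47.3 at 24 h, a fall of -0.51 (SE 0.14, limma adjusted p 0.0084) with no overlap. After CsA it was 49.3, 59.4, and 46.3 without Ang-II, below all untreated WT libraries (-0.51, SE 0.14, adjusted p 0.013), and 54.0, 60.7, and 43.0 at 24 h. Thus Thbs2 at 24 h was at 51.5 ± 3.74 in WT and 52.6 ± 8.91 after CsA (SD, n = 3). The difference in response at 24 h was 0.53 (95% confidence interval 0.12 to 0.94, adjusted p 0.092). Without untreated CsA replicate 3 the untreated difference was -0.44 (adjusted p 0.061).

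Sparc was 3037, 2907, and 2624 in untreated WT and 1840, 1892, and 1721 in untreated CsA, lower by -0.65 (SE 0.17, limma adjusted p 0.012). After CsA it was 2684, 3169, and 3027 at 2 h, a rise of 0.70 (SE 0.17, adjusted p 0.0095), and 2932, 3015, and 1925 at 24 h (0.50, adjusted p 0.076). In WT it lay between 2315 and 2980 at 2 h and between 2649 and 2886 at 24 h, overlapping the untreated libraries, with a 2 h difference of -0.07 (adjusted p 0.84). The difference in response at 2 h was 0.77 (95% confidence interval 0.26 to 1.28, adjusted p 0.19). The calls depend on the scaling: under quantile normalization the untreated difference was -0.27 (adjusted p 0.19) and the 2 h rise after CsA 0.06 (adjusted p 0.81), while WT at 2 h fell by 0.62 (adjusted p 0.009). The 24 h difference after CsA was called by edgeR (adjusted p 0.04) and DESeq2 (0.0038) and without CsA 24 h replicate 3 (0.71, adjusted p 0.007).

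Between CsA and WT, 4 of the 6 genes were lower without Ang-II, where 25.2% of all genes differed and 11.4% were lower. At 2 h 0 of 6 differed by limma (1.33% of all genes), with 1 at an unadjusted p under 0.05 (Postn) and 0 by edgeR or DESeq2. At 24 h 2 of 6 were lower (5.57% of all genes, 3.54% as lower). The test of the difference in response passed for 0 of 6 at 2 h (0.146%), with 3 at an unadjusted p under 0.05, 0 by edgeR, and 1 by DESeq2 (Sparc), and for 1 of 6 at 24 h (9.42%).

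The untreated CsA libraries also stood apart in markers of other cells. The 6 adipocyte markers summed to 2333 to 4177 against 353 to 667 in untreated WT, with 5 of 6 higher. The 7 endothelial markers summed to 993 to 1141 against 380 to 635 and the 7 macrophage markers to 253 to 324 against 96.2 to 139, with all 7 of each list higher. The 7 smooth muscle markers summed to 16694 to 18829 against 26248 to 35976, all 7 lower, while 0 of 7 fibroblast markers passed (1408 to 1588 against 1002 to 1656). No marker of these lists was at 0 reads. With Ang-II some of these sums also lay apart. At 2 h the CsA sums were 1014 to 3012 against 520 to 856 in WT for adipocyte markers. They were 810 to 1000 against 574 to 625 for endothelial and 20656 to 26587 against 29197 to 36653 for smooth muscle markers. At 24 h they were 1202 to 3814 against 786 to 852 for adipocyte and 1088 to 1420 against 1433 to 1694 for fibroblast markers. The other sums of these lists overlapped at 2 and 24 h. The part of these markers in the lower untreated Tnc, Postn, Sparc, and Thbs2 and in differences with Ang-II was not tested. Beside the rise of Spp1 in WT at 24 h, the macrophage markers summed to 250 to 368, with 7 of 7 higher than without Ang-II, and the 3 platelet markers to 13.5 to 24.3 against 5.37 to 7.35, with 2 of 3 higher. After CsA at 24 h they summed to 213 to 354, with 0 of 7 past the test against untreated CsA and 1 of 7 (Mrc1) lower than in WT at 24 h, and the difference in response at 24 h passed for 5 of 7, all lower after CsA. Their part in the Spp1 result was not tested either.

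Compared per kilobase of exon, with all annotated exons of a gene merged, the levels of the 6 genes spanned a wide range. The merged length (for instance 3788 bases for Sparc and 8702 for Postn) can exceed that of the expressed transcripts. The order between genes is therefore approximate. In untreated Cn-Ctl the mean signal per kilobase was 824 for Sparc, 223 for Postn, 28.9 for Tnc, 9.74 for Thbs2, 6.26 for Thbs1, and 0.459 for Spp1, and no neighbours in this order overlapped. At 24 h of Ang-II Thbs1 had moved up to 78.8, overlapping Tnc at 89.6, and Spp1 at 13.2 was above Thbs2 at 5.44. In SM-Cn-/- at 24 h the order was Sparc (779), Postn (99), Thbs1 (16.8), Tnc (15.1), Thbs2 (7.18), and Spp1 (1.3), where Thbs1 and Tnc overlapped. Untreated WT had the same order as untreated Cn-Ctl, with 754 for Sparc, 233 for Postn, 24.4 for Tnc, 10.5 for Thbs2, 8.98 for Thbs1, and 2.82 for Spp1, and Thbs2 and Thbs1 overlapped. At 24 h WT had 96 for Tnc and 94.8 for Thbs1, which overlapped, 22.9 for Spp1, and 7.36 for Thbs2. In untreated CsA, Thbs1 (15.4) and Tnc (10.1) overlapped.

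Among 22 receptors of these proteins measured in the genotype experiment, 4 rose in Cn-Ctl at 2 h (4.72% of all genes): Sdc4, a syndecan (2.24), Itga5, the α chain of a fibronectin receptor (3.03), Cd44, a receptor for hyaluronan and osteopontin (2.24), and Calr, which carries thrombospondin signals at the cell surface (0.72). The median of the list was 0.41, beside 0.01 over all genes. In SM-Cn-/- at 2 h, where 0.984% of all genes rose, only Sdc4 of this list passed (1.19), and the list's median was 0.26. Sdc4 (-1.17), Itga5 (-1.80), and Cd44 (-1.90) were lower in SM-Cn-/- at 2 h, 3 of 22 beside 2.97% of all genes. The response difference at 2 h passed for Cd44 (-2.16) and Sdc4 (-1.06), and Cd44 differed also at 6 h (-2.58) and 24 h (-2.25). In WT and after CsA, 4 of 21 receptors rose at 2 h, beside 11.4% and 12.3% of all genes, Sdc4, Itga5, and Cd44 among them (2.14, 2.24, and 1.52 in WT, 2.01, 2.30, and 1.28 after CsA). At 24 h Cd44 was lower after CsA than in WT by -1.75, one of 5 of 21 receptors, beside 3.54% of all genes.

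Of 30 other matricellular genes, 3 rose and 1 fell in Cn-Ctl at 2 h, where 4.72% of all genes rose and 1.51% fell, with a median of 0.36. Those that rose were Ctgf (3.66) and Cyr61 (3.25), secreted regulators of adhesion of the CCN family, and Fbln2 (1.13), a fibulin, while Tnr, another tenascin, fell by 2.79. In SM-Cn-/- at 2 h Ctgf (2.10) and Cyr61 (1.00) also rose. Cyr61 (-2.05), Ctgf (-1.53), and Nov (-1.20), all of the CCN family, were lower in SM-Cn-/- at 2 h, and the difference in response passed for Cyr61 (-2.24). At 24 h 5 of 30 were lower in SM-Cn-/- (2.68% of all genes) and 2 higher (2.27%), among them Ctgf (-2.14), Cyr61 (-1.25), Fn1 (-1.14), the gene of fibronectin, and Smoc1 (0.95). In the CsA experiment 3 of 30 rose in WT at 2 h (11.4% of all genes) and 4 rose (12.3%) and 1 fell (7.84%) after CsA, rises near those shares, with Ctgf at 2.87 and 3.16 and Cyr61 at 2.66 and 3.09. Without Ang-II 12 of 30 were lower (11.4% of all genes) and 2 higher (13.9%) after CsA, with a median of -0.33 beside -0.02 over all genes, the biglycan gene Bgn (-0.81) among the lower.

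The TGF-β list held 16 genes of its ligands, receptors, latency proteins, and targets. In Cn-Ctl at 2 h 7 of 16 rose (4.72% of all genes) and 0 fell, among them Tgfb2, a ligand (2.15), Lox, which crosslinks collagen (3.06), and Tgfbr1, a receptor (1.63), with a list median of 0.29. In SM-Cn-/- at 2 h 2 of 16 rose (0.984% of all genes), Lox (1.55) and Tgfbr1 (1.14). At 2 h 5 of 16 were lower in SM-Cn-/- (2.97% of all genes), Tgfb2 (-1.84), Lox (-1.67), and Tgfb3, another ligand (-1.06), among them. The response difference passed for Tgfb2 at 2 h (-1.73) and at 24 h (-2.31). In WT at 2 h 7 of 16 rose (11.4% of all genes), and after CsA 7 of 16 (12.3%), with Tgfb2 at 1.78 and 1.99 and Lox at 1.84 and 1.76. At 24 h Lox was lower after CsA than in WT by -0.98.

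A list of 10 genes held proteases of the matrix and the secretory pathway and the collagen chaperone Serpinh1. Their action on Thbs1 was not tested. Of these genes, 4 rose in Cn-Ctl at 2 h (4.72% of all genes). They were Adamts1 (2.62) and Adamts9 (1.77), metalloproteases of the ADAMTS family, Mmp3 (2.33), a matrix metalloprotease, and Serpinh1 (1.03). The median of the list was 0.94. In SM-Cn-/- at 2 h Adamts1 (1.53) and Adamts9 (1.30) rose, beside 0.984% of all genes, and 4 of 10 were lower than in Cn-Ctl, beside 2.97%, with Adamts1 at -1.35 and Serpinh1 at -0.86. At 24 h 3 of 10 were lower after CsA than in WT (3.54% of all genes), among them Mmp3 (-1.06) and Serpinh1 (-0.74). Of 14 targets of SRF and YAP, the transcription regulators that read the actin cytoskeleton and cell tension, 8 rose in Cn-Ctl at 2 h (4.72% of all genes) and 3 in SM-Cn-/- (0.984%), with medians of 0.79 and 0.37. At 24 h 6 of 14 were lower in SM-Cn-/- than in Cn-Ctl (2.68% of all genes), Tpm4, a tropomyosin (-1.48), and Ankrd1, a sarcomere and nuclear protein (-2.20), among them. Ctgf and Cyr61 count in this list as well as among the matricellular genes. At 24 h 4 of 14 were lower after CsA than in WT (3.54% of all genes), with Ankrd1 at -2.27.

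The genes whose group means ran most like those of a member were named by Pearson's r of log2 means, over the 8 groups of the genotype experiment (10719 genes compared) or the 6 groups of the CsA experiment. All groups of a table come from one set of scaled libraries, and these r values are descriptions. For Thbs1 they were Plaur (r = 0.978), the urokinase receptor gene, and Hmox1 (0.974), the heme oxygenase gene, in the genotype experiment, and Eif1a (0.995), a translation initiation factor gene, in the CsA experiment. For Tnc they were Odc1 (0.985), the gene of the first enzyme of polyamine synthesis, and Ckap4 (0.979), and in the CsA experiment Gpr161 (0.999). For Postn they were Psmd6 (0.981), a proteasome subunit gene, and Ran (0.973), a nuclear transport GTPase gene, and in the CsA experiment Ilk (0.994), the gene of an integrin-linked pseudokinase. For Spp1 they were Slc41a2 (0.968) and in the CsA experiment Mrto4 (0.995). For Thbs2 in the genotype experiment it was Kpna6 (0.979), an importin gene. The group means of Thbs2 in the CsA experiment and of Sparc in both spanned less than 1 on the log2 scale, and no gene is named for them. The leading gene of Thbs1, Tnc, Postn, and Spp1 was not the same in the 2 experiments.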

How the data were processed

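Aortic RNA-seq from 40 libraries was analysed in the groups given by the sample labels. Per the submitters' processing notes, the authors used Bowtie 0.12.7 and RSEM 1.16 on GRCm38 with oligo-dT libraries. The deposited signal values are the authors' normalized values. In 100% of them (tolerance 0.01 reads) the value divided by its column's signal per read gives whole reads after removal of 0.5. The signal per read was set so that the lowest value of each column equals the added 0.5 alone. Replicates differed by more than read sampling (chi-square per degree of freedom 6.47 or more).

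Genes were matched by identifier to GENCODE M21, and 14424 and 13741 protein-coding genes were tested. Log2(signal + 0.5) was fitted with limma 3.58.1 in R 4.3.3, 1 model per table with a mean per group, an intensity trend, and Benjamini-Hochberg adjustment, in 22 comparisons. The test was also run on simulated data with known changes. Alternatives were pseudocounts of 0.1 and 1, a mean of at least 5 in a group, quantile and median-ratio scaling, no trend, fits to the groups compared, all listed genes, edgeR 4.0.16 and DESeq2 1.42.0 on recovered reads, a replicate block, and leaving out each library. The members and lists were chosen with earlier results of these data known. Named genes are the 6 members, the targeted gene Ppp3r1, up to 4 called genes of each list per comparison by smallest adjusted p, and up to 3 genes most like a member over group means. A gene that this rule would name is not reported here. Strand was not given in the sources used here, and 3.42% of Thbs1 and 2.26% of Tnc exon bases overlap an antisense gene.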

Additional observations from a re-analysis of the deposited data

Results flagged for a closer look

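Results are listed here because the difference between 2 responses to Ang-II itself passed the test (limma adjusted p). Between the genotypes, the response in SM-Cn-/- minus that in Cn-Ctl was -2.78 for Thbs1 at 2 h (adjusted p 0.017) and -3.55 at 24 h (adjusted p 0.0074). At 24 h it was also -1.89 for Tnc (adjusted p 0.032) and -1.64 for Postn (adjusted p 0.047). Between the pretreatments, the response after CsA minus that in WT was -2.06 for Spp1 at 24 h (adjusted p 0.011). Dixon's test for a single outlying library was not applied, since every group holds 2 or 3 libraries.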

How the results depend on the processing

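Of 39 member results past the threshold, 409 of 429 values under another setting kept their direction and call and 20 lost the call. Of their 244 values without 1 library, 204 kept the call and 40 lost it. None of either kind changed sign. Of 45 results not past it with differences given above, 475 of 495 values kept their side, 18 passed, and 2 changed sign. Without 1 library, 312 of 332 kept it, 12 passed, and 8 changed sign.

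The members called for the Ang-II response in the genotype experiment numbered 7. They were 4 under quantile normalization, 11 under DESeq2, and 4 (without untreated Cn-Ctl replicate 2) to 8 with 1 library left out. For SM-Cn-/- against Cn-Ctl they numbered 9 and for the difference in response 4, which was 1 without the intensity trend and 0 (without untreated Cn-Ctl replicate 3) to 5 with 1 library left out. In the CsA experiment they were 12 for the Ang-II response (12 to 15 without 1 library), 6 for CsA against WT (5 to 6), and 1 for the difference in response, which was 2 under quantile normalization, 5 under DESeq2, and 1 to 5 without 1 library (5 without CsA 24 h replicate 3). DESeq2 called over 1.5 times as many genes as limma in several comparisons, for instance 392 against 163 in SM-Cn-/- at 2 h, 316 against 114 in SM-Cn-/- at 24 h, 632 against 338 in SM-Cn-/- at 6 h, 947 against 572 in Cn-Ctl at 6 h, 21 against 2 between untreated genotypes, 825 against 534, 499 against 285 between genotypes at 2 and 6 h, 794 against 183 and 1535 against 765 for CsA against WT at 2 and 24 h, 176 against 74, 42 against 9, and 278 against 74 for the difference in response at 2, 6, and 24 h, and 323 against 20 and 2005 against 1294 for that of CsA. The cause was not tested.

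Some differences changed sign. That of Postn in SM-Cn-/- at 6 h, -0.02, was 0.00 under median-ratio scaling, 0.03 under edgeR, and -0.11 to 0.15 without 1 library. That of Thbs1 in SM-Cn-/- at 24 h was -0.29 to 0.53 without 1 library, and that of Thbs1 between CsA and WT at 2 h -0.20 to 0.47. That of Sparc in WT at 2 h, -0.07, was -0.13 to 0.05 without 1 library. Of differences not given above, that of Spp1 between the genotypes at 2 h, -1.43, was -2.58 to 0.36 without 1 library, and that of Thbs2 between the genotypes at 24 h, 0.51, was -0.09 to 1.11.

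The labels do not say whether a replicate number marks a shared batch, and the main fit did not pair libraries by it. In the genotype experiment deviations of same-numbered libraries had r from -0.37 to 0.34 (median 0.06, 27 of 71 pairs over 0.1). The median was -0.04 for other pairs, and 13 of 22 libraries correlated best with their own number. In the CsA experiment r was -0.39 to 0.38 (median -0.03, 11 of 45 pairs over 0.1), beside a median of -0.01 for other pairs. There 5 of 18 libraries correlated best with their own number. With the replicate block the member counts above were 7, 9, 4, 12, 6, and 1. Depth limits Spp1 in the genotype experiment, where 2 libraries had 0 reads.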
